A study of Mus musculus with 32 samples.

Results

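The genes of the growth hormone, STAT5 and IGF axis were followed in liver, calf muscle and hypothalamus of mice whose muscle lacks COX10. They were taken by symbol from the 55401 gene identifiers of the count files, and each of these 10 genes had 1 identifier: Ghr, Stat5a, Stat5b, Socs2, Cish, Igf1, Igfals, Igfbp1, Igfbp3 and Bcl6. COX10 KO mice carry Cox10 alleles that are floxed on both chromosomes together with Cre recombinase inserted at Myl1, a myosin light chain gene of skeletal muscle fibres, and lose in muscle an assembly factor of cytochrome c oxidase. Liver and muscle came from 6 COX10 KO and 6 CTL mice each, with 3 females and 3 males per genotype on the labels, and hypothalamus from 4 COX10 KO and 4 CTL males. All were C57BL/6 mice at 200 days of age, and CTL mice were littermates whose alleles the labels do not give. The study states that males alone were used unless indicated, which the labels of liver and muscle do not match.

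Growth hormone is released from the anterior pituitary under the control of hypothalamic GHRH and somatostatin. It binds the receptor encoded by Ghr, which activates JAK2 and through it the transcription factors STAT5A and STAT5B. In liver, STAT5 drives Igf1 and Igfals, the partner that keeps circulating IGF-1 in a long-lived complex with IGFBP3, and it drives Socs2 and Cish, which feed back on the receptor. STAT5 also represses Bcl6, whose product is a repressor that binds many of the same sites, and the rodent liver differs between the sexes because growth hormone is released in pulses in males and more evenly in females. Igfbp1 is held down by insulin and is raised in fasting. In muscle, Igf1 is made locally and supports fibre growth.

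Reads came from the 3′ ends of polyadenylated RNA, so long and short transcripts give alike counts, and levels are given as CPM, the count relative to the library size as scaled within each tissue. Libraries held 674311 to 16044634 counts in liver, 434494 to 11404800 in muscle and 3526613 to 22321322 in hypothalamus. Cox10 itself averaged 113 ± 16.2 CPM in COX10 KO muscle and 109.8 ± 42.3 CPM in CTL muscle (SD, n = 6 each), and reads from the last exon cannot show whether exons before it were lost. Xist and 4 Y-linked genes matched the labelled sex in 30 of 32 libraries. Those that did not match were CTL liver 1, labelled female, and CTL liver 4, labelled male, and the results in liver are therefore also given without both. In these bulk samples, fewer cells of a type and less RNA per cell cannot be told apart, and no label says whether libraries of a group came from separate litters.

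STAT5 binds the palindrome TTCNNNGAA, which was looked for in the RefSeq promoter windows of the mouse build GRCm38.p6, from 250 bases before to 50 bases after each start site. The motif reads alike on both strands. It occurred in 8.3% of all 32851 windows, and 9.55% of the 27025 genes had it in at least 1 window. Of the 10 genes, 9 had a window, 15 in all, of which 5 held the motif. They belonged to 3 genes, Cish, Igfals and Bcl6. The stretches that hold it are shown for all 3 genes, in the direction of transcription with TTC and GAA in capitals. Igfals and Bcl6 fell in COX10 KO muscle and Cish was not called there. Ghr and Stat5b, which also fell in muscle, had no match.
Cish, chr9:107296644-107296688, plus strand, from 15 bases before the start: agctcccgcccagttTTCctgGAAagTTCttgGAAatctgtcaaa
Igfals, chr17:24877594-24877631, plus strand, first match 236 bases before 1 start: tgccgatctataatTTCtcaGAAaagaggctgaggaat
Igfals, chr17:24878158-24878196, plus strand, match 58 bases before another start: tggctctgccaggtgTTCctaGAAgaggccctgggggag
Bcl6, chr16:23988947-23988985, minus strand, match 118 bases before the upstream start: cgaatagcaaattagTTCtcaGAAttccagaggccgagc
Bcl6, chr16:23981348-23981466, minus strand, first match 168 bases before the downstream start: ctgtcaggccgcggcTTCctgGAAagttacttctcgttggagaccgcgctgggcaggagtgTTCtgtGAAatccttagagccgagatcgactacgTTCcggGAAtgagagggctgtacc
The Cish window holds 2 matches within 11 bases of each other, both downstream of the start, and the downstream Bcl6 window holds 3. Igf1, Igfbp1, Igfbp3, Stat5a, Stat5b and Ghr had no match in their windows. A match describes the letters of the window, and no binding was measured here.

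In liver, Ghr was the gene of the axis in which the genotypes separated. Every COX10 KO liver lay below every CTL liver, with a median of 535 CPM in COX10 KO livers and 705 CPM in CTL livers. Igfbp1 tended the other way, with 4 of 6 COX10 KO livers above all CTL livers. The STAT5 genes, the feedback genes Socs2 and Cish, the carrier genes Igfals and Igfbp3, and Bcl6 overlapped broadly between genotypes. None of the 10 genes passed edgeR's quasi-likelihood test at a Benjamini-Hochberg adjusted p under 0.05 over the 9707 genes tested in liver, where 0.0927% of genes were called. Without adjustment, 2 of 10 had a p under 0.05, Ghr and Igfbp1, against 4.98% of all genes. DESeq2 called 0 of the 9 for which it gave an adjusted p. It gave none for Ghr, so it is no second test of that gene in liver.

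Ghr (ENSMUSG00000055737.12, chromosome 15, 3317760 to 3583492, minus strand) encodes the growth hormone receptor. Its level was 217 CPM in the lowest, 535 CPM in the median and 563 CPM in the highest COX10 KO liver, against 570 CPM in the lowest, 705 CPM in the median and 2802 CPM in the highest CTL liver. The highest value belonged to CTL liver 3, and the other CTL livers reached at most 716 CPM. The groups did not overlap (two-sided exact permutation test, p = 0.00216, n = 6 each, the smallest p that this design allows), and 0.247% of all genes tested had every COX10 KO liver below every CTL liver. In edgeR the log2 fold change was -1.09 (standard error, SE, 0.43, adjusted p = 0.878). Without CTL liver 3 it was -0.59 (adjusted p = 0.999 in edgeR), and the exact permutation p was 0.00433 (n = 6 and 5). Without CTL liver 1 and CTL liver 4 the exact permutation p was 0.00952 (n = 6 and 4). Groups that do not overlap stay apart whichever libraries are left out, so neither of these is a further test. COX10 KO liver 3 and COX10 KO liver 6 held the lowest levels, 246 and 217 CPM. COX10 KO liver 3 was the shallowest library of liver. Skeletal muscle fibre markers summed to 679 CPM in COX10 KO liver 6 and to at most 37.1 CPM in CTL livers. They summed to 136 CPM in COX10 KO liver 4, whose Ghr level was 532 CPM. The part of depth and of these markers in the result was not tested. Exact permutation tests were run on all 10 genes in each of the 3 tissues, and their p-values are given unadjusted.

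Stat5b (ENSMUSG00000020919.11, chromosome 11, 100780731 to 100850724, minus strand) is the main STAT5 gene of liver. It ran from 36 CPM through a median of 81.7 CPM to 100.7 CPM in COX10 KO livers, and from 57.4 CPM through 65.4 CPM to 85.7 CPM in CTL livers. The CTL range lay inside the COX10 KO range, with a log2 fold change of 0.12 (SE 0.26). Stat5a (ENSMUSG00000004043.14, chromosome 11, 100859351 to 100885169, plus strand) was near the lower end of measurement, at 3.27 to 17.7 CPM in COX10 KO livers and 4.38 to 19.4 CPM in CTL livers. The 3′ end of Stat5a overlaps Stat3 on the other strand, and the strand setting of the counting is not given in the sources used here, so reads of these genes may not have been told apart.

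Socs2 (ENSMUSG00000020027.18, chromosome 10, 95385362 to 95417180, minus strand), the suppressor that limits receptor signalling, measured 14.7 CPM in the lowest, 57.5 CPM in the median and 69.2 CPM in the highest COX10 KO liver, against 34.2, 57.8 and 142 CPM in CTL livers. The medians were almost equal, and the tails came from COX10 KO liver 3 at 14.7 CPM, which rested on 9 reads, and from CTL liver 3 at 142 CPM. Its log2 fold change was -0.39 (SE 0.38). Cish (ENSMUSG00000032578.7, chromosome 9, 107296026 to 107302784, plus strand), the other feedback gene, ran from 11.9 through 23.9 to 47.5 CPM in COX10 KO livers and from 10.3 through 32.6 to 48.9 CPM in CTL livers. Bcl6 (ENSMUSG00000022508.5, chromosome 16, 23965052 to 23988852, minus strand) ran from 33.7 through 65.6 to 118 CPM in COX10 KO livers and from 36.2 through 51 to 147 CPM in CTL livers. These ranges overlapped almost completely, with log2 fold changes of -0.32 (SE 0.43) for Cish and 0.11 (SE 0.41) for Bcl6. Without CTL liver 1 and CTL liver 4 the estimates changed sign, to 0.13 for Cish, -0.02 for Bcl6 and 0.19 for Stat5a.

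Igf1 (ENSMUSG00000020053.18, chromosome 10, 87858265 to 87937042, plus strand), the endocrine product of the axis, was among the more abundant transcripts of liver. It measured 882 CPM in the lowest, 973 CPM in the median and 1774 CPM in the highest COX10 KO liver, against 748, 1624 and 1976 CPM in CTL livers. CTL liver 3 held the lowest CTL value, and the other 5 CTL livers lay between 1430 and 1976 CPM. The log2 fold change was -0.47 (SE 0.28, adjusted p = 0.997 in edgeR), and the exact permutation p was 0.121 (n = 6 each). Without CTL liver 3, 5 of 6 COX10 KO livers lay below all CTL livers (exact permutation p = 0.0216, n = 6 and 5). Leaving out the lowest CTL value widens the difference by itself, so this is no further test. The edgeR fit without CTL liver 3 gave an adjusted p of 0.999. Without CTL liver 1 and CTL liver 4 the exact permutation p was 0.276 (n = 6 and 4). In edgeR, leaving out 1 library gave log2 fold changes of -0.59, the value without CTL liver 3, to -0.31. CTL liver 3 was thus the highest of the CTL livers for Ghr and Socs2 and the lowest for Igf1.

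Igfals (ENSMUSG00000046070.9, chromosome 17, 24865997 to 24882010, plus strand), which encodes the acid-labile subunit, ran from 41.8 through 79.5 to 177 CPM in COX10 KO livers and from 59.1 through 92 to 192 CPM in CTL livers. Its log2 fold change was -0.38 (SE 0.37), and 2 of 6 COX10 KO livers lay below all CTL livers. Igfbp3 (ENSMUSG00000020427.11, chromosome 11, 7206086 to 7213923, minus strand) was scarce in liver, with a median of 2.93 CPM in COX10 KO livers and 5.31 CPM in CTL livers, and COX10 KO liver 3 had no read of it. That library had 674311 counts in all, in which a transcript at this level gives only a few reads.

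Igfbp1 (ENSMUSG00000020429.7, chromosome 11, 7197782 to 7202546, plus strand), which binds IGF-1 and is repressed by insulin, varied widely in both genotypes. It measured 196 CPM in the lowest, 475 CPM in the median and 1560 CPM in the highest COX10 KO liver, against 49.6, 253 and 411 CPM in CTL livers. COX10 KO liver 5 and COX10 KO liver 6 stood highest, at 943 and 1560 CPM, and both are labelled male. COX10 KO liver 6 is also the liver with the highest skeletal muscle fibre markers, whose part here was not tested. The exact permutation p was 0.0433 (n = 6 each), and edgeR gave a log2 fold change of 1.36 (SE 0.61, adjusted p = 0.947). Without CTL liver 1 and CTL liver 4, its exact permutation p was 0.181 (n = 6 and 4), with 4 of 6 COX10 KO livers still above all CTL livers.

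The hepatocyte markers overlapped between genotypes. The summed level of 8 genes was 76988 to 190550 CPM in COX10 KO livers and 74895 to 129120 CPM in CTL livers, and edgeR called 0 of 8 (0 of 8 at an unadjusted p under 0.05). The 12 macrophage and Kupffer cell markers summed to 202 to 606 CPM in COX10 KO livers and 306 to 1402 CPM in CTL livers. All 12 had estimates below 0, with 10 of 12 at an unadjusted p under 0.05 and none called by edgeR after adjustment, and the highest sum was again that of CTL liver 3. Their part in the Ghr result was not tested.

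**Figure D1:**
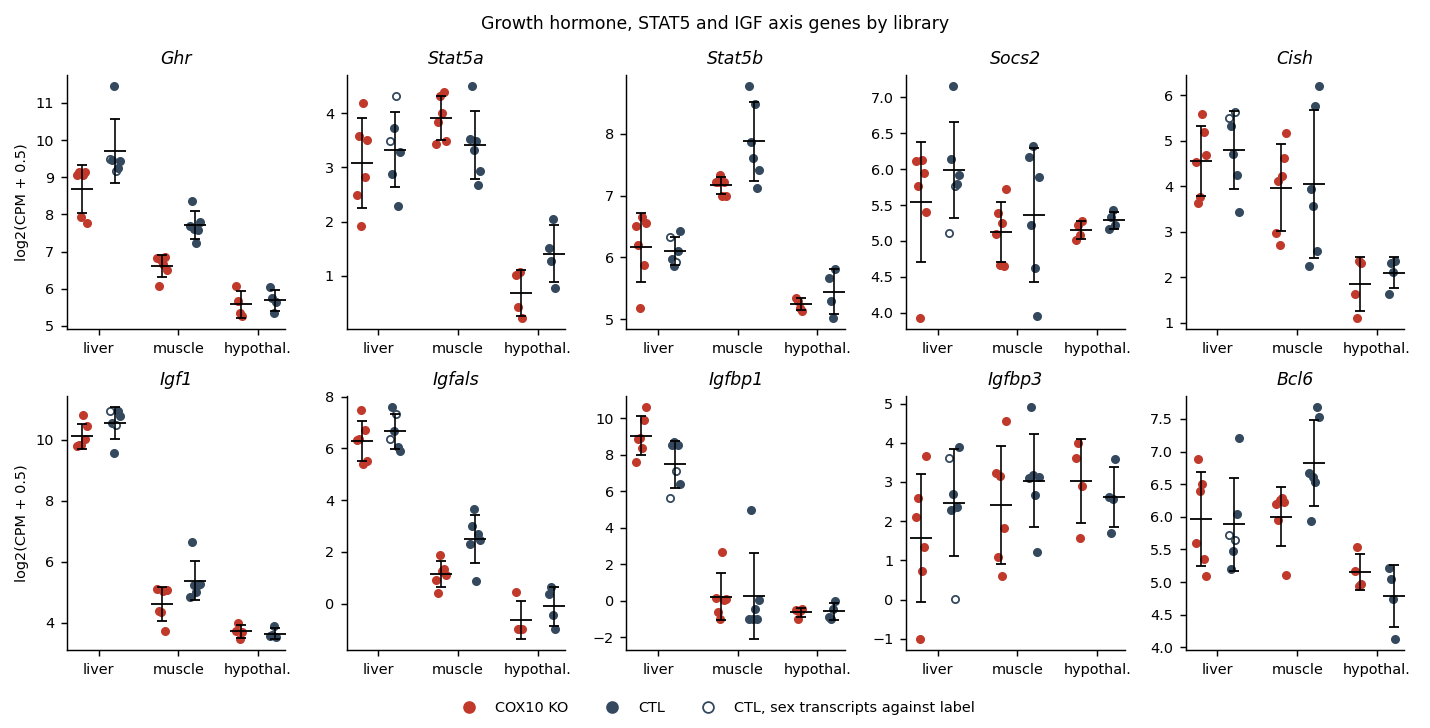
Level of each of the 10 genes in every library, as log2(CPM + 0.5), with COX10 KO (red) to the left of CTL (blue) in each tissue; points are libraries and bars are the mean with 1 SD on the log scale. Ghr is the gene whose 6 COX10 KO points lie below all 6 CTL points in both liver and muscle, and the open points are CTL liver 1 and CTL liver 4.

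In muscle, the tissue that carries the deletion, 4 of the 9 genes tested fell: Ghr, Stat5b, Igfals and Bcl6. None rose, and Igfbp1 was below the expression filter. As fitted by edgeR, the COX10 KO level was 0.466 of the CTL level for Ghr, 0.565 for Stat5b, 0.552 for Bcl6 and 0.326 for Igfals. In this tissue 14.3% of the 11636 genes tested were called, 7.43% lower and 6.9% higher, and DESeq2 called 4 of 9 genes of the axis lower. Ghr alone of the 4 kept its call when any 1 of the 12 libraries was left out.

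Ghr measured 66.9 CPM in the lowest, 105 CPM in the median and 116 CPM in the highest COX10 KO muscle, against 151, 200.3 and 328 CPM in CTL muscles. All 6 COX10 KO muscles lay below all 6 CTL muscles (exact permutation p = 0.00216, n = 6 each), as was the case for 2.31% of all genes tested. The log2 fold change was -1.10 (SE 0.20, adjusted p = 0.00266 in edgeR). Leaving out each library in turn gave log2 fold changes of -1.18 to -0.91 with adjusted p of 0.00191 to 0.011. The highest CTL value, 328 CPM, came from CTL muscle 2, and without it and COX10 KO muscle 4 the estimate was -0.97 (adjusted p = 0.0061).

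Stat5b measured 127 CPM in the lowest, 149 CPM in the median and 160 CPM in the highest COX10 KO muscle, against 139, 213 and 436 CPM in CTL muscles. The COX10 KO muscles were closely grouped, and the CTL muscles were spread widely, with CTL muscle 1 at 436 CPM and CTL muscle 4 at 358 CPM. The log2 fold change was -0.82 (SE 0.25, adjusted p = 0.0354 in edgeR). It was -0.61 without CTL muscle 1 (adjusted p = 0.0967), -0.60 without CTL muscle 4 (adjusted p = 0.084), and it lost its call without any 1 of the 6 COX10 KO muscles, with adjusted p of 0.0595 to 0.103. Stat5a, its close relative on the same chromosome, went the other way without passing the test, at 10.3 through 14.7 to 20.4 CPM in COX10 KO muscles and 5.92 through 10.1 to 22.1 CPM in CTL muscles (log2 fold change 0.54, SE 0.29, adjusted p = 0.217 in edgeR).

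Bcl6 measured 34 CPM in the lowest, 73.3 CPM in the median and 77.7 CPM in the highest COX10 KO muscle, against 60.9, 99.7 and 205 CPM in CTL muscles. Its log2 fold change was -0.86 (SE 0.28) with an adjusted p of 0.0498 in edgeR, just inside the threshold. It kept its call in 2 of the 12 fits with 1 library left out, those without CTL muscle 2 and without CTL muscle 4, and the adjusted p of the other 10 was 0.0669 to 0.127. CTL muscle 2 held the lowest CTL value and was the only CTL muscle within the COX10 KO range. Without it and COX10 KO muscle 4, a choice made after seeing the data, the groups did not overlap (exact permutation p = 0.00794, n = 5 each). That separation follows from leaving out CTL muscle 2, so it is no further test. Igfals, of which muscle holds little, had 0.81 through 1.77 to 3.18 CPM in COX10 KO muscles and 1.32 through 5.42 to 12.2 CPM in CTL muscles, from 74 reads in COX10 KO and 84 reads in CTL libraries in all. Its log2 fold change was -1.62 (SE 0.48, adjusted p = 0.0346 in edgeR), and it was -1.28 (adjusted p = 0.121) without CTL muscle 3, which held the highest level. It also lost its call without CTL muscle 5, CTL muscle 6 or COX10 KO muscle 1, 2, 5 or 6 (adjusted p of 0.0548 to 0.0901).

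Igf1 in muscle was 12.8 CPM in the lowest, 26.4 CPM in the median and 34.1 CPM in the highest COX10 KO muscle, against 28.3, 37.2 and 99.6 CPM in CTL muscles. In all, 3 of 6 COX10 KO muscles lay below all CTL muscles, yet the test was not passed (log2 fold change -0.72, SE 0.31, adjusted p = 0.136 in edgeR). Without CTL muscle 2, which held the 99.6 CPM, the estimate was -0.35 (adjusted p = 0.351 in edgeR). Socs2 and Cish, the feedback genes, had estimates of -0.35 (SE 0.34) and -0.35 (SE 0.48). Cish ranged widely in both groups, from 6.04 to 35.7 CPM in COX10 KO muscles and from 4.27 to 73.1 CPM in CTL muscles. Igfbp3 was 1.03 to 23 CPM in COX10 KO muscles and 1.82 to 29.5 CPM in CTL muscles, with an estimate of -0.05 (SE 0.68).

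CTL muscle 2, the shallowest library, held the highest value of the CTL muscles for Ghr, Stat5a, Igf1, Igfbp1 and Igfbp3. Its 8 hepatocyte markers summed to 2260 CPM and its 5 adipocyte markers to 2712 CPM, against at most 172 and 594 CPM in the other CTL muscles. Igfbp1, whose level in the other CTL muscles was at most 0.546 CPM, was 31.4 CPM in it. Among COX10 KO muscles, number 4 was highest in hepatocyte markers, at 315 CPM, and in Igfbp1, at 5.99 CPM, against at most 123 and 0.63 CPM in the others. Without both libraries the 4 genes that fell were still called, with adjusted p of 0.0061 for Ghr, 0.0463 for Stat5b, 0.0326 for Bcl6 and 0.0488 for Igfals in edgeR.

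Marker transcripts of several cell types also differed between genotypes in muscle. The 8 satellite and regenerating cell markers summed to 196 to 292 CPM in COX10 KO muscles and 20.3 to 35.9 CPM in CTL muscles, with 4 of the 6 tested higher by edgeR. Of the 8 fibre markers, 4 were lower, and their sum was 61155 to 106280 CPM in COX10 KO muscles and 59169 to 171900 CPM in CTL muscles. Of 8 macrophage markers tested, 3 were higher. The part of these cell types in the fall of Ghr, Stat5b, Igfals and Bcl6 was not tested.

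**Figure D2:**
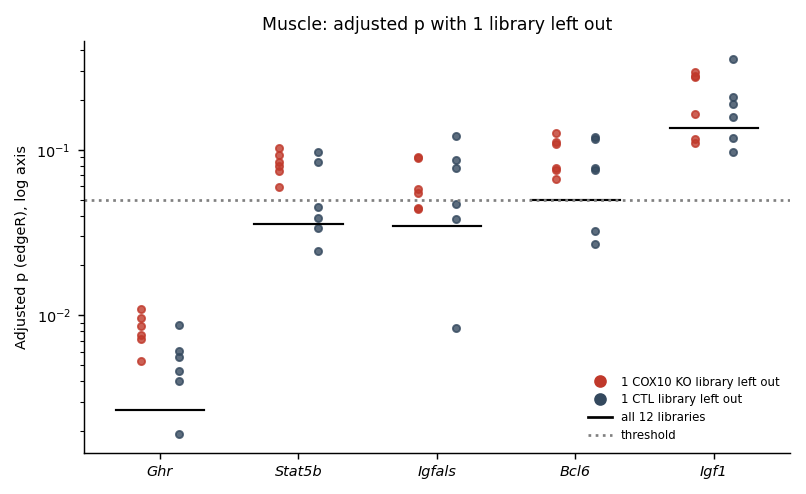
Adjusted p of edgeR (log axis) for 5 genes in muscle with all 12 libraries (black line) and with 1 COX10 KO (red, left) or 1 CTL (blue, right) library left out, against the threshold of 0.05. All 12 points of Ghr lie below the threshold, whereas 4 points of Stat5b, 5 of Igfals, 2 of Bcl6 and none of Igf1 do.

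In hypothalamus, the values of COX10 KO and CTL libraries overlapped for all 10 genes of the axis. Of the 7 genes tested, edgeR called 0 (0 at an unadjusted p under 0.05), where it called 0 of 13504 genes in all (0%, with 211 or 1.56% under 0.05 before adjustment). DESeq2 called 0 of 10. Stat5a, Igfals and Igfbp1 were below the filter. Ghr measured 66.8, 50.2, 40.2 and 38.1 CPM in COX10 KO hypothalami, against 65.3, 53.3, 40.5 and 49.2 CPM in CTL hypothalami. These values overlapped, with a log2 fold change of -0.10 (SE 0.22). Socs2 was even across libraries, at 31.9, 36.9, 33.3 and 38.3 CPM in COX10 KO and 35.4, 39.7, 42.8 and 37 CPM in CTL hypothalami (log2 fold change -0.14, SE 0.17). Stat5b measured 40.4, 38.6, 35.8 and 34.8 CPM in COX10 KO and 50.2, 38.6, 32.1 and 55.7 CPM in CTL hypothalami. Bcl6 measured 35.6, 45.8, 30.1 and 30.8 CPM in COX10 KO and 36.6, 32.4, 26.2 and 17 CPM in CTL hypothalami (log2 fold change 0.33, SE 0.24). With 4 libraries a group the exact permutation test can reach 0.0286 at best, and the smallest value among the 10 genes was 0.0857, for Stat5a. Libraries with the same number deviated together in this tissue, and with the number as a block edgeR again called 0 of the 8 genes tested, against 0.0141% of all 14212 genes, with 2 of the 8 under 0.05 before adjustment, against 9.44% of all genes. Stat5a was at 1.52, 0.833, 1.59 and 0.669 CPM in COX10 KO hypothalami, from 3 to 9 reads each, against 2.35, 1.92, 3.64 and 1.22 CPM in CTL hypothalami, lower in 4 of 4 pairs (blocked log2 fold change -0.95, SE 0.39, adjusted p = 0.512 in edgeR). Bcl6 was higher in 3 of 4 pairs (blocked log2 fold change 0.34, SE 0.15, adjusted p = 0.525 in edgeR). With 4 pairs an exact paired permutation test can reach 0.125 at best, which was the value for Stat5a.

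The hypothalamic and pituitary genes that set growth hormone release were measured in the same libraries. Of 15 listed, 8 were tested and edgeR called 0, none of them under 0.05 before adjustment, and DESeq2 0 of 12. Sst, which encodes the somatostatin that restrains growth hormone release, measured 223, 354, 416 and 411 CPM in COX10 KO hypothalami, against 199.9, 278, 330 and 389 CPM in CTL hypothalami. It was higher in 4 of 4 pairs of the same number, a pairing that no label states (exact paired permutation p = 0.125, the smallest possible). The blocked log2 fold change was 0.22 (SE 0.09, adjusted p = 0.512 in edgeR, 0.0274 before adjustment). In that fit 9.44% of all genes were under 0.05 before adjustment. Ghrh, the releasing hormone, was at 1.74, 2.22, 1.59 and 3.34 CPM in COX10 KO hypothalami, from 8 to 15 reads each, against 0.706, 4.91, 2.73 and 4.38 CPM in CTL hypothalami. The ranges overlapped, with a log2 fold change of -0.39 (SE 0.57). The genes with the smallest p were Sstr5, a somatostatin receptor (log2 fold change 0.62, SE 0.34), the somatostatin relative Cort (0.64, SE 0.38) and Sstr3 (0.40, SE 0.26). Growth hormone itself, Gh, was at 28.1 CPM in COX10 KO hypothalamus 4, with anterior pituitary markers summing to 67.8 CPM there, and at or under 0.278 CPM in the other 7 libraries. The pituitary was not sampled. In hypothalamus the 8 hepatocyte markers summed to 3154 to 5272 CPM in COX10 KO and 1232 to 2821 CPM in CTL libraries, without overlap. This sum does not stand for hepatocytes, since 4 of the 8 had no read in COX10 KO libraries and 3 none in CTL libraries. Only 1 was tested, with a log2 fold change of 0.91. It was under 0.05 before adjustment, as were 1.56% of all genes, and was not called. Neuron and hypothalamus markers (3379 to 4386 against 3983 to 5478 CPM) and glial markers (3884 to 6369 against 4262 to 11609 CPM) overlapped. The part of tissue composition in these values was not tested.

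**Figure D3:**
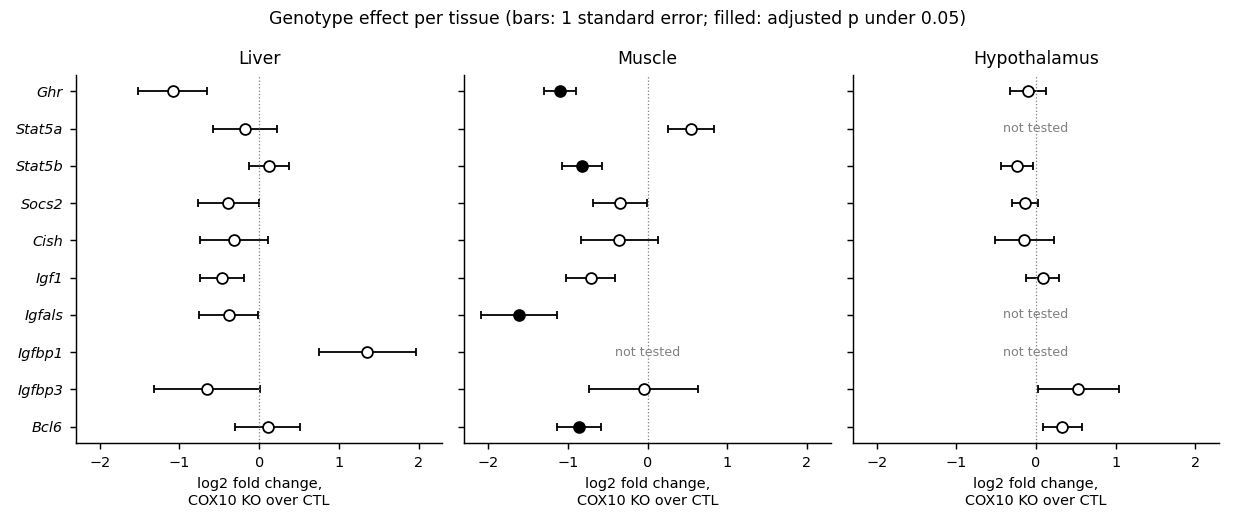
Log2 fold change of COX10 KO over CTL for the 10 genes in liver, muscle and hypothalamus, with bars of 1 standard error; filled points passed an adjusted p of 0.05 in edgeR. Ghr lies at -1.09 in liver and -1.10 in muscle, with the wider bar in liver, and at -0.10 in hypothalamus.

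The difference between the liver and the muscle effect was tested in a joint fit of both tissues over 11373 genes, of which 2.18% were called. This fit uses 1 spread per gene for both tissues and takes all libraries as independent. The labels do not say whether liver and muscle came from the same mice. None of the 10 genes was called by edgeR, with 1, Stat5b, under 0.05 before adjustment, against 18.1% of all genes, nor by DESeq2 (0 of 10). For Ghr the effect in liver minus that in muscle was -0.03 on the log2 scale (SE 0.50), an error that leaves room for a difference of about the size of either effect. Stat5b had a difference of 0.96 (SE 0.38, adjusted p = 0.178 in edgeR and 0.0729 in DESeq2), Bcl6 of 0.97 (SE 0.50, adjusted p = 0.308 in edgeR) and Igfals of 1.19 (SE 0.58, adjusted p = 0.276 in edgeR). That Stat5b, Bcl6 and Igfals passed the test in muscle and not in liver is therefore not shown to be a difference between the tissues.

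Levels ordered the tissues differently from gene to gene. Ghr was highest in liver, then muscle, then hypothalamus, and no neighbouring ranges overlapped in either genotype. The means were 442, 99.2 and 48.8 CPM in COX10 KO mice and 1019, 215 and 52.1 CPM in CTL mice. Igf1 was 45-fold higher in liver than in muscle of COX10 KO mice and 34.4-fold higher in CTL mice, with no overlap, and muscle was above hypothalamus without overlap only in CTL mice. Igfals and Igfbp1 were likewise liver genes, at 48-fold and 508-fold the muscle mean in COX10 KO mice and 18.2-fold and 44.3-fold in CTL mice, where the muscle mean of Igfbp1 rests on CTL muscle 2. Stat5b was highest in muscle, at 1.91-fold the liver mean in COX10 KO mice and 3.69-fold in CTL mice, without overlap in either genotype. Socs2, Bcl6 and Igfbp3 overlapped between all neighbouring tissues, and Cish and Stat5a overlapped between liver and muscle. Levels were scaled within each tissue, and these orders are descriptions without a test.

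The genes nearest to Ghr, Igf1 and Socs2 in their pattern over the 6 groups of tissue and genotype were found among 12765 genes, by the root mean square difference of centred log2(mean CPM + 0.5). Those nearest to Ghr were Plac8 (0.26), Ldhd (0.27) and Scd1 (0.27). Those nearest to Igf1 were Hpn (0.22), Ces2g (0.28) and Rab17 (0.31), and those nearest to Socs2, whose pattern is almost flat, were Slc35c1 (0.12), S1pr2 (0.12) and Pex2 (0.12).

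Other genes of growth hormone signalling and the IGF system were taken from a list of 33. In liver 0 of the 25 tested were called by edgeR (2 at an unadjusted p under 0.05) or by DESeq2 (0 of 25), with a median log2 fold change of -0.11 against -0.02 over all genes. Igfbp2, an IGF-binding protein gene of liver, and the insulin receptor substrate gene Irs2 were among those with the smallest p. Igfbp2 was at 50.7 to 173 CPM in COX10 KO and 25 to 120 CPM in CTL livers. The log2 fold changes were 0.88 (SE 0.37) for Igfbp2 and 0.64 (SE 0.42) for Irs2, and neither passed the test after adjustment.

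In muscle, 3 of the 25 genes tested on that list were called, 2 lower and 1 higher, a share no higher than the 14.3% called among all genes, and the median log2 fold change was 0.06 against -0.03 over all genes. Igfbp5, an IGF-binding protein gene of muscle, fell, at 29 to 158 CPM in COX10 KO muscles and 192 to 631 CPM in CTL muscles with no overlap (log2 fold change -1.90, SE 0.40, adjusted p = 0.0061 in edgeR). Jak2, the kinase that the receptor activates, fell, at 12.4 to 19.9 CPM in COX10 KO muscles and 16.7 to 37.6 CPM in CTL muscles (log2 fold change -0.72, SE 0.22, adjusted p = 0.0364 in edgeR). Its call was lost in 8 of the 12 fits with 1 library left out, those without CTL muscle 2, 5 or 6 and without COX10 KO muscle 1, 2, 4, 5 or 6, with adjusted p of up to 0.101, and also without CTL muscle 2 and COX10 KO muscle 4 together (adjusted p = 0.0988 in edgeR). It was lost as well without an expression filter, with the replicate number as a block and after thinning all libraries to the depth of the shallowest (adjusted p of 0.0878, 0.0826 and 0.0667 in edgeR). Shc1, an adaptor of receptor tyrosine kinases, rose, at 6.88 to 16.9 CPM in COX10 KO muscles and 2.73 to 7.38 CPM in CTL muscles (log2 fold change 1.18, SE 0.30, adjusted p = 0.0174 in edgeR). In hypothalamus edgeR called 0 of 26 (0 under 0.05 before adjustment) and DESeq2 0 of 32, and Foxo1 and Igf2r, among those with the smallest p, had log2 fold changes of 0.37 and -0.45.

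The liver genes that depend on the sex pattern of growth hormone and on STAT5B were examined next. A list of 34 male-biased genes was taken, many of them major urinary protein (Mup) genes and cytochrome P450 genes of the male liver. Of the 28 tested in liver, edgeR called 6 lower and none higher, where it called 0.0721% of all genes lower, and DESeq2 called 11 lower and none higher. All 28 had estimates below 0, as had 52.8% of all genes, and 24 of 28 had an unadjusted p under 0.05, as had 4.98% of all genes. The median log2 fold change was -3.65, also with a gene without reads in COX10 KO livers set to a floor of 3 counts over the group. The list had been chosen with results of these livers in view, so its share against that of all genes is no test.

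The genes called were 6 Mup genes, numbered 9, 11, 15, 16, 17 and 18, which encode urinary pheromone carriers secreted by the liver. Mup18 had 1 read in all 6 COX10 KO livers together, against 17.5 to 191 CPM in CTL livers (adjusted p = 9.05e-05 in edgeR). Mup17 was at 0 to 4.56 CPM in COX10 KO livers and 183 to 389 CPM in CTL livers. Mup16 was at 0 to 4.56 CPM in COX10 KO livers and 16.2 to 52.2 CPM in CTL livers, and Mup15 had no read in any COX10 KO liver, against 8.08 to 40.3 CPM in CTL livers. These 4 genes were lower in livers of both labelled sexes, without overlap, and kept their calls when any 1 of the 12 libraries was left out. Mup9 and Mup11 kept theirs in 4 of the 12, and their calls were lost without CTL liver 5, CTL liver 6 or COX10 KO liver 1, 2, 3, 5 or 6, and further without CTL liver 2 for Mup9 and COX10 KO liver 4 for Mup11 (adjusted p of 0.0633 to 0.205). Both also lost them with the replicate number as a block (adjusted p = 0.157 each in edgeR) and without the sex term (0.0577 for Mup9 and 0.0638 for Mup11), and Mup11 after thinning (0.0668). Mup genes are near-identical copies, among which reads may be shared or lost, so the single copies are uncertain. The sources used here do not say whether the Mup gene cluster is the same in both genotypes, so for the genes with few or no reads in every COX10 KO liver, Mup15, Mup16, Mup17 and Mup18, a difference in gene copies and a difference in expression cannot be told apart. Mup3, a more divergent copy, was detected in all livers, at 354 to 3804 CPM in COX10 KO and 1369.5 to 11687 CPM in CTL livers.

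Within males, taken without the mismatched libraries, 9 of the 29 male-biased genes tested were lower and none was higher in edgeR, where 0.115% of 10407 genes were called, and DESeq2 called 13 lower. The comparison rests on COX10 KO livers 4, 5 and 6 and on CTL livers 5 and 6. Here too the list was chosen with results of these livers in view, so its share is no test. Cyp2u1 was at 13.7, 8.1 and 11.9 CPM in COX10 KO males and 62.8 and 144 CPM in CTL males (log2 fold change -3.17, SE 0.43, adjusted p = 0.0117 in edgeR). Cyp7b1, an oxysterol hydroxylase, was at 26.3, 22.3 and 40 CPM in COX10 KO males and 127 and 267 CPM in CTL males (log2 fold change -2.71, SE 0.42, adjusted p = 0.0223 in edgeR). Hsd3b5, a steroid dehydrogenase of the male liver, was at 5.15, 0 and 0 CPM in COX10 KO males and 74.8 and 307 CPM in CTL males, and Selenbp2 at 1.14, 2.03 and 0 CPM against 52.6 and 416 CPM. The other 5 were Mup11, Mup7, Mup18, Mup15 and Mup17. The levels of Cyp2u1 and Cyp7b1 in COX10 KO males overlapped those in COX10 KO females, which were 5.54 to 9.82 CPM for Cyp2u1 and 19.6 to 27.3 CPM for Cyp7b1. The number of male-biased genes called was 3 without CTL liver 6, 5 without COX10 KO liver 5 and 4 without COX10 KO liver 6. In females, edgeR called 2 of 29, Mup18 and Mup17, both lower, and DESeq2 called 6 lower and 1 higher.

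Of the 27 female-biased genes listed, edgeR called 0 of the 21 tested in all livers (2 at an unadjusted p under 0.05) and DESeq2 1 lower of 24. Those with the smallest p were A1bg, Fmo2 and Abcd2, with log2 fold changes of -7.46, 1.09 and 0.85. Within males 20 of 25 had estimates above 0 and the other 5 had no reads in males, 11 had an unadjusted p under 0.05 against 4.12% of all genes, and edgeR called 0 and DESeq2 5 higher. Slc22a26, an organic anion transporter gene, and the female P450 gene Cyp2b13 were among those with the smallest p. Slc22a26 was at 45.2, 78 and 8.76 CPM in COX10 KO males and 1.46 and 0 CPM in CTL males. Cyp2b13 was at 28.6, 192 and 16.8 CPM in COX10 KO males and 0 and 0.732 CPM in CTL males. Neither passed the edgeR test, with adjusted p of 0.0772 for Slc22a26 and 0.144 for Cyp2b13. The female-biased list was also chosen with earlier results of these data known. Its shares against those of all genes, here and within females, are therefore no test.

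Within females, 2 of the 25 female-biased genes fell and none rose in edgeR, where 0.0384% of genes were called, and DESeq2 called 3 lower. A1bg was at 8.1, 9.8 and 0 CPM in COX10 KO females and 2189 and 4602 CPM in CTL females (log2 fold change -8.93, SE 0.83, adjusted p = 7.10e-04 in edgeR). Cyp3a44 was at 1.28, 3.84 and 0 CPM in COX10 KO females and 142 and 206 CPM in CTL females (adjusted p = 0.00671 in edgeR). Without COX10 KO liver 1, 1 of these 2 calls was left. In COX10 KO males A1bg was at 2.86, 2.53 and 2.1 CPM, CTL males 5 and 6 had no read of either gene, and the library labelled CTL male 4 held 615 CPM of A1bg.

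For the 10 genes themselves, the effect of genotype was compared between the sexes of liver as an interaction, over all 12 livers as labelled. edgeR called 0 of 10 and 0 of 10030 genes in all (0%), with 2 of 10 and 1.23% of genes under 0.05 before adjustment, and DESeq2 0 of 10. The 2 genes were Cish, at 1.69 in males minus females on the log2 scale (SE 0.73, adjusted p = 1), and Bcl6, at -1.59 (SE 0.71, adjusted p = 1). Without the mismatched libraries Cish was at 47.5, 36 and 25.2 CPM in COX10 KO males and 18.4 and 10.3 CPM in CTL males, with no overlap, and at 22.6, 11.9 and 13.1 CPM in COX10 KO females and 39.8 and 25.5 CPM in CTL females, with no overlap in the other direction. The effects were 1.36 (SE 0.46) in males and -1.0 (SE 0.45) in females, neither of them called. Groups of 3 and 2 libraries can separate by chance, and the share of all genes that do so was not computed. The separation in males depends on the libraries left out, since CTL liver 1, male by its transcripts, held 44.5 CPM and CTL liver 4, male by its label, 48.9 CPM. With sex from transcripts the effect on Cish was 0.53 (SE 0.47) in males and -1.23 (SE 0.50) in females, and with all libraries as labelled it was 0.50 and -1.19. In females the groups did not overlap with either library counted as female. Bcl6 was at 89.8, 40.5 and 33.7 CPM in COX10 KO males and 65.4 and 147 CPM in CTL males, and at 47.8, 118 and 83.5 CPM in COX10 KO females and 36.2 and 44.2 CPM in CTL females. With sex from transcripts its effect was -0.70 (SE 0.47) in males and 0.94 (SE 0.48) in females, and leaving out 1 library moved the male estimate between -1.49 without COX10 KO liver 4 and -0.26 without CTL liver 6. The estimates of both genes thus differed in sign between the sexes under each way of assigning sex, without any call.

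Ghr had estimates below 0 in both sexes, -0.56 (SE 0.61) in males and -1.96 (SE 0.62, adjusted p = 0.648 in edgeR) in females, and the female value was -0.66 without CTL liver 3. It was at 532, 560 and 217 CPM in COX10 KO males and 614 and 699 CPM in CTL males, and at 537, 563 and 246 CPM in COX10 KO females and 712 and 2802 CPM in CTL females. Socs2 had estimates of 0.01 (SE 0.53) in males and -1.16 (SE 0.53) in females, or -0.56 without CTL liver 3. Igfbp1 had estimates of 2.05 (SE 0.76) in males and -0.02 (SE 0.71) in females, and its interaction was not called (1.77, SE 1.09). The male estimate was 1.34 without CTL liver 6 and 3.54 without CTL liver 5. None of the 10 genes was called within either sex by edgeR (before adjustment 2 in males, against 4.12% of all genes, and 3 in females, against 4.47%, were under 0.05) or by DESeq2 (0 of 10 in each). Between the sexes themselves, male against female over all livers, edgeR called 0 of 10 genes and 0 of 9707 in all (0%, with 9.72% under 0.05 before adjustment), and DESeq2 0 of 9. With the sex of each library read from its sex-linked transcripts instead, 2186 of 9707 genes were called. Of the 10 genes only Igfals was among them, a share below that of all genes. It was lower in males (log2 fold change -0.98, adjusted p = 0.0307 in edgeR). Igfals was not called without the mismatched libraries, where 639 of 9895 genes were.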

How the data were processed

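Expression was measured by 3′ mRNA sequencing (QuantSeq 3′ FWD) in 32 libraries of liver, calf muscle and hypothalamus, all collected at one time of day. Gene counts without normalization were deposited by the authors, who used BBDuk for trimming, STAR 2.5.0a for alignment (mouse build GRCm38.p6) and HTSeq 0.6.1 for counting. Of 55401 identifiers, 55141 matched a GENCODE symbol. Each tissue was fitted alone with edgeR 4.0.16 in R 4.3.3 (TMM factors, filterByExpr, quasi-likelihood F test, two-sided, Benjamini-Hochberg adjustment over all genes tested), with labelled sex as a covariate in liver and muscle. The sex and tissue differences were interaction terms, and the effects within a sex come from a fit without CTL liver 1 and CTL liver 4, added after the data had been seen. CPM were tested with exact permutation tests in scipy 1.17.1. These tests were repeated without the selected libraries named above, and not without each library in turn. Standard errors were taken from the F statistic, and p-values measure the spread between libraries, which may be partly technical. Reads carry no molecular identifiers, so depth gives counting error only. The fits were tested on simulated data.

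The genes, lists and rules were chosen with earlier results of these data known. All 10 genes are named in each tissue, and from the other lists every gene called or, where none was, up to 3 with the smallest p, of which some are not reported here. Other genes of these lists that are named (Mup3, Prlr, Cyp4a12a, Sst, Ghrh, Gh) were chosen after their values were seen. Alternatives were DESeq2 1.42.0, relative log expression factors, other filters (none, or at least 10 counts in every library), no sex term, the replicate number as a block, thinning to the shallowest library, leaving out each library and, chosen after seeing the data, leaving out CTL muscle 2 with COX10 KO muscle 4. Numbers were taken to pair the hypothalami, where deviations of libraries with the same number correlated at 0.81, 0.20, 0.40 and 0.31, although no label states a pairing and number 4 correlated more with another (0.47).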

Additional observations from a re-analysis of the deposited data

Results flagged for a closer look

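Within the 60 groups of 4 or 6 libraries formed by the 10 genes, 3 tissues and 2 genotypes, 12 held a library far from the rest, where chance gives about 1 in 20. Of these, 4 were the values of CTL muscle 2 for Igf1 (99.6 CPM, next 38.2 CPM), Igfbp1 (31.4 CPM, next 0.546 CPM), Igfbp3 (29.5 CPM, next 8.59 CPM) and Stat5a (22.1 CPM, next 11 CPM). CTL muscle 2 is the shallowest library and the one with the highest hepatocyte and adipocyte markers. CTL liver 3 was far from the other CTL livers in Ghr (2802 CPM, next 716 CPM) and Socs2 (142 CPM, next 70.2 CPM), and CTL liver 6 in Bcl6 (147 CPM, next 65.4 CPM). In COX10 KO muscle the libraries were number 4 for Igfbp1 (5.99 CPM, next 0.63 CPM) and number 6 for Igfbp3 (23 CPM, next 8.96 CPM) and, on the low side, for Bcl6 (34 CPM, next 61.4 CPM). In hypothalamus they were COX10 KO 1 for Igfals (0.868 CPM, none in the others) and CTL 3 for Igf1 (14.3 CPM, next 11.5 CPM). No gene of the axis had a genotype effect that was called different between the sexes or between liver and muscle.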

How the results depend on the processing

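Of the 765 single-gene estimates recomputed under an alternative, 683 kept their direction and their side of the threshold. In liver, leaving out both mismatched libraries turned Stat5a to 0.19, Cish to 0.13 and Bcl6 to -0.018. With 1 library left out, liver Stat5a ran from -0.40 to 0.11, liver Bcl6 from -0.14 to 0.46, muscle Igfbp3 from -1.17 to 0.34, and hypothalamic Ghr from -0.29 to 0.014, Cish from -0.37 to 0.047 and Igf1 from -0.012 to 0.17. Muscle Igfbp3 was 0.014 without an expression filter and 0.53 without CTL muscle 2 and COX10 KO muscle 4, and the liver minus muscle difference of Ghr was 0.0095 in DESeq2, where the median over all genes was 0.62 against 0.03. The cause was not tested.

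With the replicate block, muscle called 1 gene of the axis (Ghr) and 987 in all, hypothalamus 2 in all and none of the axis, and no other call of the 10 genes was changed by it. In muscle and liver the numbers do not pair the libraries. Thinning left 2 called genes of the axis, Ghr and Stat5b, and 755 genes in all in muscle, where Bcl6 had an adjusted p of 0.12, and 4 in all in liver. The filter of at least 10 counts left 1111 in muscle and 0 in liver. Calls in all liver genes were 62 in DESeq2, 175 without a filter, 16 without both mismatched libraries and 28 with sex from transcripts, against 9. The sex interaction had 1 without the mismatched libraries and 1 with sex from transcripts. Male against female gave 1 in DESeq2, 639 without the mismatched libraries and 2186 with sex from transcripts, with 1 gene of the axis, Igfals. The effect in males was called for 37 genes in DESeq2, 34 with sex from transcripts and 2 as labelled, against 12, and for 15 and 2 male-biased genes in the last pair, against 9. The effect in females was called for 43, 9 and 2 genes, against 4, and for 0 female-biased genes as labelled. The tissue difference was called for 697 genes in DESeq2 (423 higher and 274 lower, against 123 and 125) and 143 without the mismatched libraries, against 248.

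With each library left out, calls ran from 4 to 13 over all liver genes, 1 to 4 of the axis and 913 to 2052 over all genes in muscle, 0 to 5 for male against female, 4 to 13 genes and 3 to 8 male-biased genes in males, and 3 to 14 genes and 1 to 2 female-biased genes in females. No gene of the axis was called in liver or hypothalamus in any of these fits. With 2 CTL libraries of each sex, leaving out 1 leaves a lone library that is assumed to vary like the others.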

Other observations

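Prlr, which encodes the prolactin receptor, a relative of the growth hormone receptor, was at 74.4, 145 and 41.7 CPM in COX10 KO males and 22.2 and 11.5 CPM in CTL males, and at 201, 162 and 55.7 CPM in COX10 KO females and 288 and 830 CPM in CTL females. The log2 fold change was 2.4 (standard error 0.73) in males and -1.98 (standard error 0.65) in females, with an adjusted p of 0.847 and 0.676 in edgeR, so neither passed the test. In muscle, 1 of the 7 genes tested of the male-biased liver list was called, where 14.3% of all genes were, namely Gstp1, a glutathione transferase gene, which fell, at 0.856 to 3.82 CPM in COX10 KO muscles and 1.85 to 7.68 CPM in CTL muscles (log2 fold change -1.66, standard error 0.38, adjusted p = 0.0104 in edgeR). The 3 genes of the female-biased list with the smallest p in muscle were Prom1 (log2 fold change -0.80, standard error 0.29), Cd36 (0.56, standard error 0.30) and Abcd2 (-0.61, standard error 0.33), none of them called.

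Cyp4a12a, a P450 gene of the male liver, was at 457, 10.1 and 104 CPM in COX10 KO males and 0.853, 0.426 and 16.4 CPM in COX10 KO females. In CTL livers it was at 1173 and 1592 CPM in males 5 and 6, at 0.362 and 0 CPM in females 2 and 3, at 2584 CPM in the library labelled female 1 and at 0.51 CPM in the library labelled male 4. The libraries whose sex-linked transcripts go against their labels thus also go against them in this gene.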
